A study of Mus musculus with 6 samples.

Results

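The genes described here are 43 mouse genes of protein folding and endoplasmic reticulum (ER) stress, taken by symbol from a named list out of the 21374 genes of the deposited table. All 43 were found and all 43 passed the filter on low values, a value of at least 1 in at least 3 libraries, which 21281 genes passed. They fall into 16 secretory chaperones and folding enzymes of the ER lumen, 4 genes of ER-associated degradation, 6 sensors and transducers of the unfolded protein response, 4 genes of the integrated stress response, 11 cytosolic heat shock genes and the 2 subunits of the mitochondrial chaperonin.

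RNA sequencing was done on distal colon from male C57BL/6 mice, with 3 libraries labelled wild type and 3 labelled Otud1-/-, the notation for loss of both copies of a deubiquitinase gene. The labels used here do not describe the allele. Every mouse of both groups had been given the carcinogen azoxymethane (AOM) at 6 weeks of age, on day 0, and then 3 cycles of dextran sulfate sodium (DSS), which injures the colon lining, each of 4 days at 1.5% followed by 14 days of water. On day 81, at 18 weeks of age, the tumours were taken out and RNA was drawn from the tissue beside them, so every value below belongs to AOM and DSS treated, tumour-bearing colon and the set holds no untreated mouse. Since no label ties a library to its own mouse, the p-values below speak of the spread among 6 libraries, which may in part be technical.

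Otud1 itself went against the labels. It had 110.8, 45.1 and 48.9 normalised reads under the wild-type label and 140.8, 149.6 and 207.9 under the Otud1-/- label. The libraries labelled Otud1-/- were all higher, by 1.37 ± 0.35 (SE) on the log2 scale, with a limma adjusted p of 0.0934 and an exact two-sided permutation p of 0.1, the smallest that 3 libraries against 3 allow. Whether the reads fall inside or outside a deleted part of the gene cannot be read from a table of gene totals. The groups are therefore named by their labels throughout, and each direction below is a direction between labels. The deposited values came to between 15300937 and 19406407 whole reads per library.

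Proteins that enter the secretory pathway are folded in the ER by the HSP70 chaperone BiP (Hspa5), the HSP90 chaperone GRP94 (Hsp90b1), the lectin chaperones calnexin and calreticulin and a set of protein disulfide isomerases, and those that fail are sent back to the cytosol for degradation. When unfolded proteins build up, the sensors IRE1 (Ern1, and Ern2 in mucosal epithelium), PERK (Eif2ak3) and ATF6 start the unfolded protein response, in which XBP1 and ATF6 raise the transcription of ER chaperones and ATF4 raises that of amino acid and stress genes. Unfolded protein in the cytosol is handled by a separate set of chaperones under the heat shock factor HSF1. In colon the ER branch is best known from goblet cells, which secrete mucin, and from plasma cells, which secrete antibody.

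Matches to regulatory elements upstream of the genes are given here by class, because the classes are compared below. The windows are the 250 bases before each RefSeq transcription start on mouse build GRCm38.p6, held for 34 of the 43 genes. Manf, Hyou1, Ern2, Atf6, Creb3l1, Hsf1, Hspa8, Hsp90aa1 and Hsp90ab1 had no entry in the promoter table. The ER stress response element (ERSE), searched on both strands as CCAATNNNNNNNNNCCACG, was found in 7 of 14 secretory chaperone promoters and in 1 of 4 of the ER-associated degradation class, against 35 of the 27025 genes in the promoter table (0.13%). No promoter of the other 4 classes held it. The matches are printed on the strand that reads CCAAT first, with the fixed bases of the motif in capitals and the spacer in lower case. Each is followed by its position and genome strand.
Hspa5: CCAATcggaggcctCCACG (chr2:34772025-34772043, + strand)
Hsp90b1, far site: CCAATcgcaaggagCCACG (chr10:86705638-86705656, - strand)
Hsp90b1, near site: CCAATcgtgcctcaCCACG (chr10:86705533-86705551, + strand)
Calr: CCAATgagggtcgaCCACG (chr8:84847075-84847093, + strand)
Canx: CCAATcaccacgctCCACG (chr11:50325800-50325818, - strand)
Pdia6: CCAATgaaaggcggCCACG (chr12:17266491-17266509, + strand)
Dnajc3: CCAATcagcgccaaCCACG (chr14:118937827-118937845, + strand)
Creld2: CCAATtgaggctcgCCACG (chr15:88819520-88819538, - strand)
Syvn1: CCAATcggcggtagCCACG (chr19:6046532-6046550, + strand)
Of these sites only that of Hspa5 lies inside an exon annotated by GENCODE, its own.

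The related element ERSE-II, searched as ATTGGNCCACG, was found in 1 member, Herpud1, and in 10 genes of the table (0.037%). The same window held the core of the element read by ATF4 (CARE core, TGATGNAA), which occurs in 1056 genes of the table (3.91%) and in 2 members, Herpud1 and Asns. The Herpud1 window is printed whole because it carries both elements. It is on the + strand at chr8:94386179-94386428, outside annotated exons, with the CARE core (on the opposite strand) and then ERSE-II in capitals.
Herpud1: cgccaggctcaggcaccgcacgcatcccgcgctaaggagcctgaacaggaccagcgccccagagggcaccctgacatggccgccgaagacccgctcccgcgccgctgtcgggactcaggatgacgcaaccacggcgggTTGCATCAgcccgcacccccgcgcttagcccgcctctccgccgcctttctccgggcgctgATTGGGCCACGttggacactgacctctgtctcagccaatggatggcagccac

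The heat shock element, the inverted GAA repeats bound by HSF1, was searched as 3 units (GAANNTTCNNGAA) and, after the values had been seen, as 2 units (TTCNNGAA), which is part of every 3-unit match. The 3-unit form was found in Hspd1 and Hspe1 only among the members, and in 139 genes of the table (0.514%). These genes are transcribed away from each other and share a single run, at chr1:55088059-55088076, printed for each on its own strand with every base of the run in capitals. For Hspd1 the run was found before the second of its RefSeq starts and not before the first, and it lies inside an annotated Hspd1 exon.
Hspd1: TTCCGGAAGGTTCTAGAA
Hspe1: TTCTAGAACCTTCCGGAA
The 2-unit form was also found in Eif2ak3 and in Hsph1, where it reads TTCtcGAA at chr5:149636362-149636369, inside an annotated exon of the gene, and in 2193 genes of the table (8.11%). In the cytosolic heat shock class the 3-unit form was found in 0 of 7 promoters and the 2-unit form in 1 of 7. The core of the XBP1 element (TGACGTGG), present in 163 genes of the table (0.603%), was in no member window. These are matches of letters in a short window, and no binding was measured.

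Across the 43 genes, 1 passed the test. Hsph1, the cytosolic HSP110 nucleotide exchange factor, rose in the libraries labelled Otud1-/-, and no member fell. Among all tested genes 0.949% were called, 0.282% as higher and 0.667% as lower, so 1 of 43 is close to that background. The test was limma on log2(normalised reads + 1) with Benjamini-Hochberg adjustment over all tested genes, called at an adjusted p under 0.05. The classes nevertheless lay apart in their values. All 26 genes of the 3 ER classes had a negative log2 change, with a median of -0.36. The median of all tested genes was 0.02, and 48.3% of them were negative. Of the 5365 tested genes whose mean level lay within the range of these 26, 68.6% were negative, with a median of -0.12. The genes were also chosen with earlier results of these data known. The count of negative ER genes rested on the scaling of the libraries. It was 23 of 26 after quantile normalisation (median -0.21), 20 on a total-read scale (-0.15) and 12 on a scale set by epithelial markers (0.02). Without Otud1-/- replicate 2, 2 of the 26, Pdia5 and Pdia6, were just above 0. The 11 cytosolic genes had a median of 0.01 with 5 negative and 6 positive, and both mitochondrial genes were positive. For the separation of the groups, 13 of the 43 genes were lower and 6 higher without overlap, against 13.3% and 13.0% of all tested genes (26.3% in either direction). By DESeq2 on the recovered reads 7 members were called, 2 higher (Hsph1 and Hsp90aa1) against 4.19% of genes and 5 lower (Edem1, Dnajb1, Herpud1, Xbp1 and P4hb) against 4.66%.

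**Figure D1:**
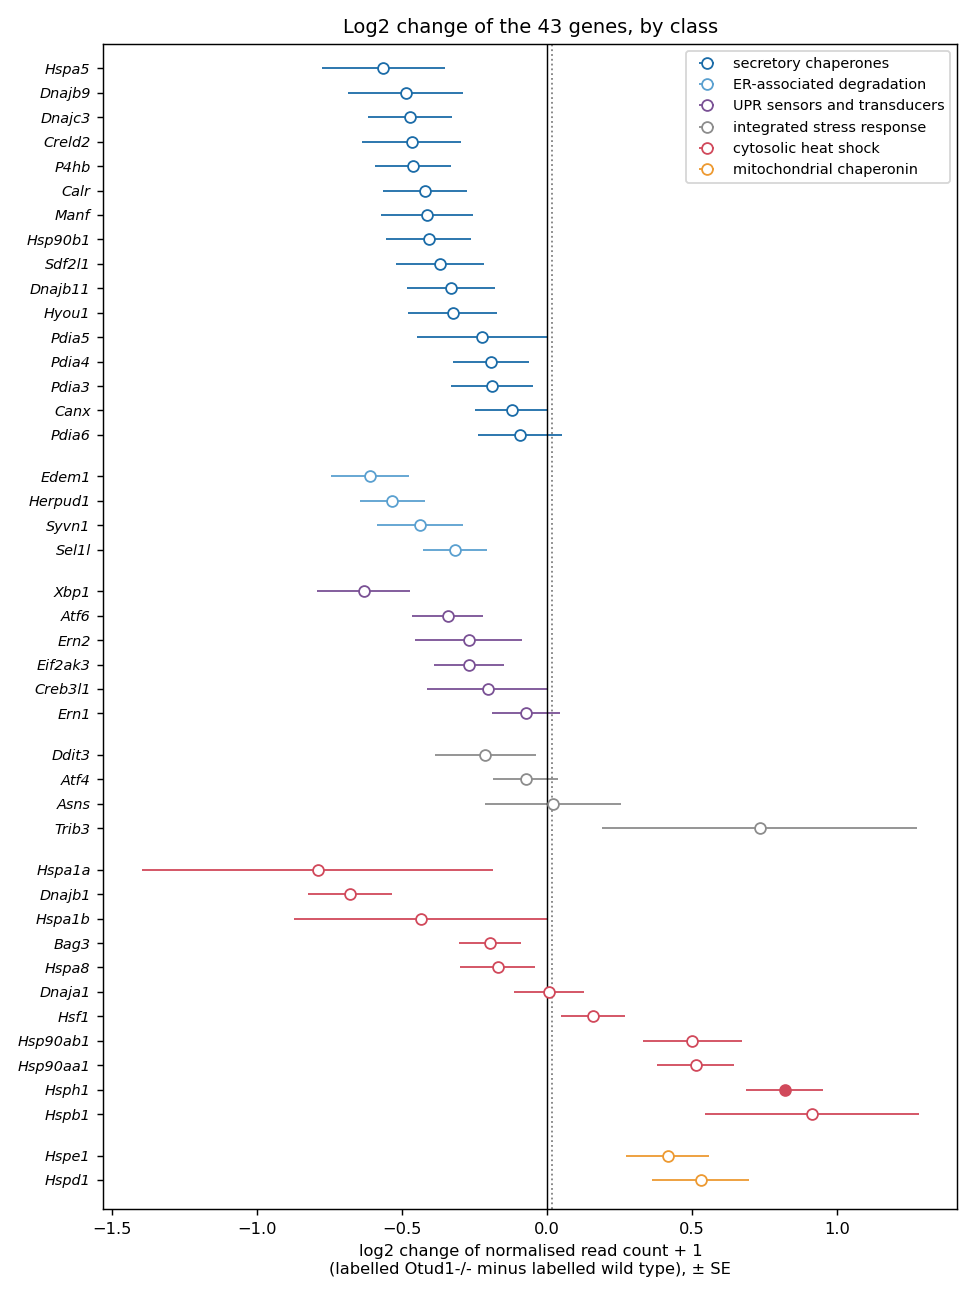
Log2 change (labelled Otud1-/- minus labelled wild type) of each of the 43 genes with its standard error, grouped by class; the filled point is the gene called by limma and the dotted line is the median of all tested genes, 0.02. All 26 ER genes lie left of 0, the mitochondrial pair lies right of it, and the cytosolic heat shock genes spread from -0.79 to 0.91.

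The secretory chaperones all had lower means in the libraries labelled Otud1-/-, by -0.09 to -0.56 on the log2 scale with a median of -0.39, and none passed the test. At an unadjusted p under 0.05, 9 of the 16 were lower, where 9.97% of all tested genes were. P4hb, the protein disulfide isomerase that forms and reshuffles disulfide bonds, had the smallest p of the class and its highest level per kilobase of exon, 5136 normalised reads per kb in the wild-type label. It had 13927, 15325 and 14829 normalised reads under the wild-type label and 11645, 9202 and 11307 under the Otud1-/- label. The groups did not overlap, and its change was -0.46 ± 0.13 (SE; limma adjusted p = 0.114).

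Dnajc3, the ER co-chaperone P58IPK that works with BiP, had 2804, 2917 and 2480 normalised reads under the wild-type label and 1883, 1691 and 2380 under the Otud1-/- label. Its groups did not overlap, but Otud1-/- replicate 3 came close to the lowest wild-type library, and the change was -0.47 ± 0.14 (limma adjusted p = 0.129). Calr, calreticulin, had 13601, 14552 and 14280 against 10474, 8907 and 12578 normalised reads. Again the groups stood apart with Otud1-/- replicate 3 the nearest, and the change was -0.42 ± 0.14 (limma adjusted p = 0.164). Manf, a secreted ER stress factor, was the other gene of the class without overlap, at -0.41 ± 0.16. Non-overlap with the Otud1-/- label lower was seen in 4 of 16 secretory genes and in 13.3% of all tested genes.

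Hsp90b1, the ER member of the HSP90 family, had 11547, 11330 and 9523 normalised reads under the wild-type label and 7145, 7717 and 9646 under the Otud1-/- label. Otud1-/- replicate 3 lay just above wild-type replicate 3, so the groups overlapped (-0.41 ± 0.15, limma adjusted p = 0.183). Hspa5, which the rule for printing values did not choose and which is given as the most widely used marker of ER stress, had 14533, 18121 and 11960 against 9114, 8143 and 13114 normalised reads. Its point estimate was the largest of the class, -0.56 ± 0.21, with an overlap between the groups and a limma adjusted p of 0.197. The remaining members were Creld2, Dnajb9, Sdf2l1, Dnajb11, Hyou1, Pdia3, Pdia4, Pdia5, Pdia6 and Canx, all of which overlapped between the groups. The disulfide isomerases Pdia3, Pdia4, Pdia5 and Pdia6 and the lectin chaperone Canx were nearest to 0, between -0.09 and -0.22.

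Within the Otud1-/- label the 3 libraries were unlike in this class. Of the 16 secretory genes, 16 lay below the wild-type range in replicate 1, 15 in replicate 2 and 4 in replicate 3, where 10 lay within the range and 2 above it. The class mean of log2(normalised reads + 1) was 11.88, 11.99 and 11.81 in the wild-type label and 11.44, 11.38 and 11.82 in the Otud1-/- label, so that Otud1-/- replicate 3 overlapped with the wild-type libraries. The lower class values thus rested on Otud1-/- replicates 1 and 2.

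The 4 genes of ER-associated degradation did not show this split. Each lay below the wild-type range in all 3 libraries labelled Otud1-/-, as did 13.3% of all tested genes. Their changes ran from -0.32 to -0.61 with a median of -0.49. None passed the test. Herpud1, which organises the degradation complex in the ER membrane and whose promoter is printed above, had 3009, 3301 and 2791 normalised reads in the wild-type label and 2216, 1978 and 2083 in the Otud1-/- label. The Otud1-/- values were tight and well below the wild-type ones, with a change of -0.53 ± 0.11 (limma adjusted p = 0.0601).

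Edem1, a mannosidase-like protein that picks misfolded glycoproteins for disposal, had 3875, 3376 and 3531 normalised reads against 1962, 2590 and 2554. All Otud1-/- libraries were low, replicate 1 most, and the change was -0.61 ± 0.14 (limma adjusted p = 0.0681). Syvn1, the ubiquitin ligase HRD1, had 1741, 1647 and 1478 normalised reads against 964, 1287 and 1371 (-0.44 ± 0.15, limma adjusted p = 0.159). Sel1l, the partner that holds HRD1 in place, had 2150, 2304 and 2080 against 1590, 1817 and 1842 (-0.32 ± 0.11, limma adjusted p = 0.167). For both genes the groups were separate by a smaller gap than for Herpud1 and Edem1. Herpud1 and Edem1 were also called by DESeq2, with adjusted p-values of 0.00542 and 0.00932.

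Among the sensors and transducers the transcription factor Xbp1 stood lowest. It had 6685, 8031 and 6484 normalised reads under the wild-type label and 3974, 4135 and 5673 under the Otud1-/- label. The groups did not overlap, and the change was -0.63 ± 0.16 (limma adjusted p = 0.091; DESeq2 adjusted p = 0.0221). Gene totals do not tell the spliced, active form of the Xbp1 message from the unspliced one.

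The sensor Atf6 had 1304, 1293 and 1134 normalised reads against 1073, 865 and 1008 (-0.34 ± 0.12, limma adjusted p = 0.178). Eif2ak3, the PERK kinase, had 909, 931 and 833 against 831, 672 and 721 (-0.27 ± 0.12, limma adjusted p = 0.262). Both were without overlap, Eif2ak3 by a gap of less than 1 standard deviation of either group. Ern2, the IRE1 form of mucosal epithelium, had 624, 887 and 756 against 657, 489 and 740 normalised reads with overlapping groups (-0.27 ± 0.18, limma adjusted p = 0.448). Ern1, the ubiquitous IRE1, was nearest to 0 at -0.07 ± 0.12, and Creb3l1, a membrane-bound transcription factor of secretory cells, was at -0.20 ± 0.21. All 6 genes of the class were negative, with a median of -0.27, which was -0.15 without Otud1-/- replicate 2.

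The integrated stress response genes showed no common direction as deposited, with 2 of 4 negative and overlapping groups for each. Their median of -0.03 ran from -0.09 to 0.07 when libraries were left out. It was 0.11, 0.18 and 0.35 on the quantile, total-read and epithelial scales, with 3, 3 and 4 of 4 positive. Atf4, the transcription factor at the centre of this response, had the highest level of the class per kilobase and 4057, 3608 and 3428 normalised reads against 3499, 3628 and 3388. Its change was -0.07 ± 0.11 (limma adjusted p = 0.757), and its mRNA does not report its translation, by which ATF4 is mainly set. Ddit3, the pro-apoptotic factor CHOP, had 347, 384 and 273 against 291, 315 and 254 (-0.21 ± 0.17, limma adjusted p = 0.533).

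Asns, asparagine synthetase and a known ATF4 target, had 636, 1041 and 921 normalised reads against 652, 900 and 1085. The change was 0.02 ± 0.23 (limma adjusted p = 0.974), so neither label was consistently higher. Trib3, a pseudokinase induced by CHOP, was near the lower end of detection with 17.9, 4.70 and 23.5 against 20.5, 21.4 and 24.2 normalised reads, and its estimate of 0.73 ± 0.54 (limma adjusted p = 0.491) rested on the single low library, wild-type replicate 2.

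**Figure D2:**
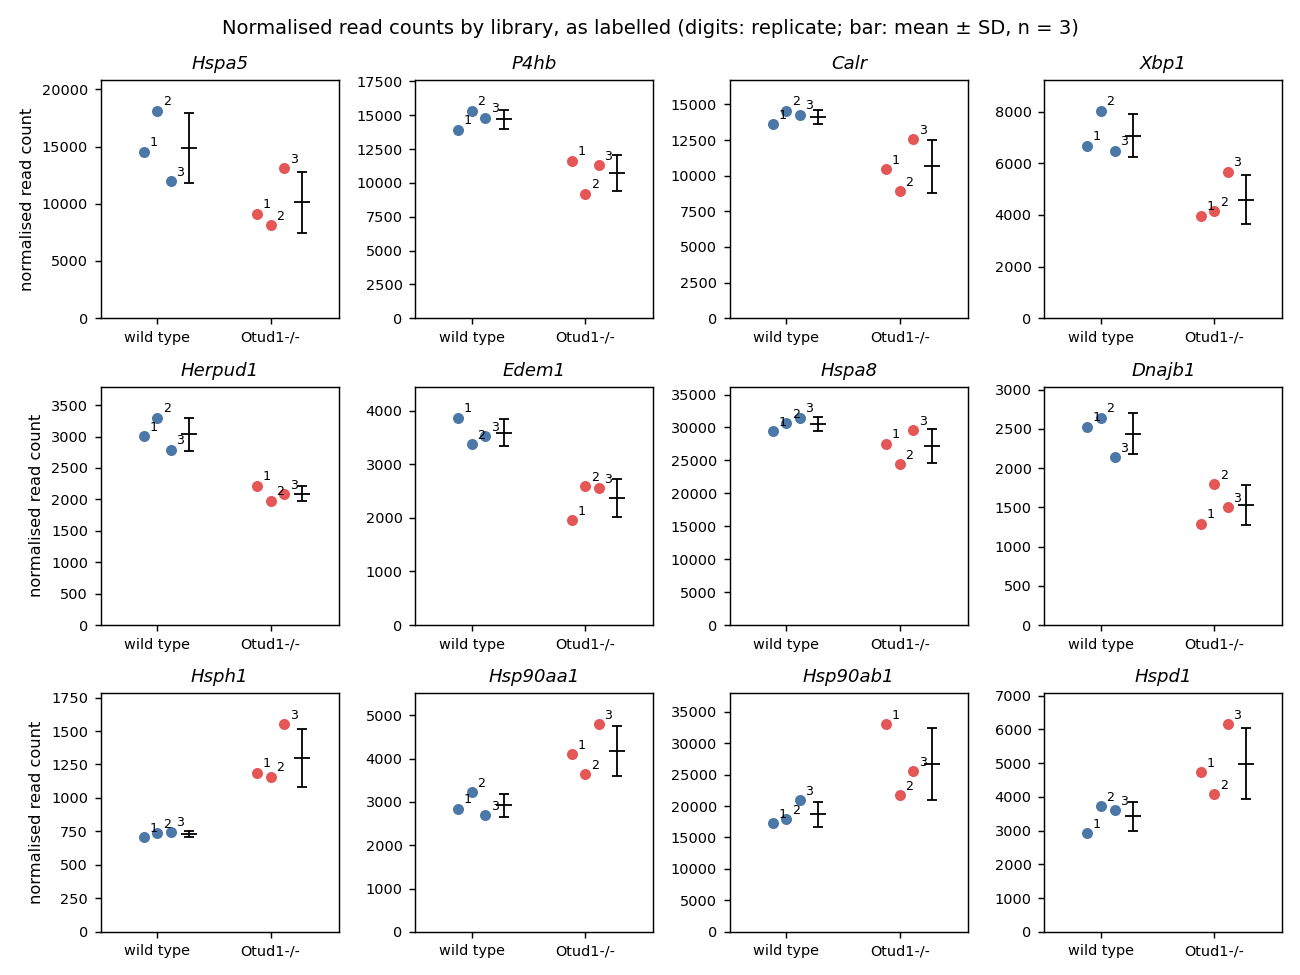
Normalised read counts per library for 12 of the genes, on linear axes from 0; points are libraries, numbered by replicate, and bars are the mean ± SD of 3. Herpud1, Edem1, Xbp1 and Dnajb1 are lower in all libraries labelled Otud1-/-, Hsph1, Hsp90aa1, Hsp90ab1 and Hspd1 are higher in all, and Hspa5 and Hspa8 overlap.

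The cytosolic heat shock genes did not move as a block. Hsph1 (ENSMUSG00000029657.15, chr5:149614287-149636376, - strand) had 704.6, 735.5 and 748.5 normalised reads under the wild-type label and 1190, 1159 and 1549 under the Otud1-/- label. The wild-type libraries differed by less than 50 reads and every Otud1-/- library lay well above them. The mean rose from 729.5 ± 22.5 to 1299 ± 217 (SD, n = 3), 1.76-fold, or 0.82 ± 0.13 (SE) on the log2 scale with a limma adjusted p of 0.035. The call was lost when any library labelled wild type was left out (adjusted p = 0.125, 0.132 and 0.163 without replicates 1, 2 and 3) and without Otud1-/- replicate 3 (0.0642). It was also lost in limma without the trend and robust settings (0.174) and with a replicate block (0.121), and held in the other 14 of 20 alternative settings, while the change stayed between 0.69 and 1.195 over all 20.

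Hsp90aa1, the inducible cytosolic HSP90, had 2843, 3223 and 2693 normalised reads against 4102, 3644 and 4789. The libraries labelled Otud1-/- were all higher (0.51 ± 0.13, limma adjusted p = 0.0974). Hsp90ab1, the constitutive form, had 17232, 17901 and 20925 against 32978, 21685 and 25562, with Otud1-/- replicate 1 far above the rest (0.50 ± 0.17, limma adjusted p = 0.164). Hspb1, the small heat shock protein HSP27, had the largest estimate of all members, 0.91 ± 0.37, but its groups overlapped (1513, 902 and 758 against 1280, 2818 and 1912 normalised reads; limma adjusted p = 0.253). Hsf1 itself was without overlap at 541 to 571 against 614 to 631 normalised reads, a difference of 0.16 ± 0.11 (limma adjusted p = 0.458).

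Dnajb1, the HSP40 co-chaperone that is a classical HSF1 target, went the other way. It had 2531, 2645 and 2143 normalised reads under the wild-type label and 1293, 1798 and 1500 under the Otud1-/- label. No library overlapped, and the change was -0.68 ± 0.15 (limma adjusted p = 0.0627; DESeq2 adjusted p = 0.00669). Bag3, a co-chaperone of selective autophagy, was also lower without overlap, by a small amount (-0.20 ± 0.11, limma adjusted p = 0.344).

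Hspa8, the constitutive HSP70, had the highest wild-type level of all 43 genes per kilobase, 7096 normalised reads per kb, and Hsp90ab1 had the highest in the Otud1-/- label, 8917. Hspa8 had 29469, 30608 and 31488 normalised reads against 27555, 24382 and 29617, with Otud1-/- replicate 3 inside the wild-type range (-0.17 ± 0.13, limma adjusted p = 0.5). Dnaja1 was level at 0.01 ± 0.12. The inducible pair Hspa1a and Hspa1b cannot be separated with assurance, since their coding sequences are 99.4% identical with 11 differing positions and the way shared reads were counted is not given. Their summed reads were 942 ± 468 in the wild-type label and 608 ± 180 in the Otud1-/- label (SD, n = 3). The sums by library were 1343, 1055 and 428 against 412, 645 and 767. The groups overlapped, with a difference of -0.52 on the log2 scale. Non-overlap with the Otud1-/- label higher was seen in 4 of the 11 cytosolic genes (Hsph1, Hsp90aa1, Hsp90ab1 and Hsf1) and in 13.0% of all tested genes, and 4 of the 11 were higher at an unadjusted p under 0.05, against 9.5%.

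The mitochondrial chaperonin subunits were both higher without overlap, as were 13.0% of all tested genes, and neither passed the test. Hspd1, HSP60, had 2930, 3731 and 3609 normalised reads against 4727, 4087 and 6148 (0.53 ± 0.17, limma adjusted p = 0.138). Hspe1, its lid HSP10, had 1331, 1376 and 1650 against 1854, 1694 and 2286 (0.42 ± 0.14, limma adjusted p = 0.163). In both, Otud1-/- replicate 3 was the highest library and replicate 2 the nearest to the wild-type label. The heat shock element run printed above lies between the second RefSeq start of Hspd1 and the start of Hspe1, and not between the first and that of Hspe1. On opposite strands 112 bases of their annotated exons overlap. Overlap of this kind also touches Hspa1a (19.0%, Gm20481), Hsp90b1 (10.3%, 1810014B01Rik), Eif2ak3 (8.05%, Gm43292) and Dnaja1 (7.05%, Smu1), and whether counting used strand is not given in the sources used here.

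The direct contrast of secretory and cytosolic genes was made within libraries. The mean log2 level of the 16 secretory genes exceeded that of the 11 cytosolic genes by 0.87, 1.04 and 1.22 under the wild-type label and by 0.70, 0.43 and 0.80 under the Otud1-/- label. The groups did not overlap, with wild-type replicate 1 at 0.87 and Otud1-/- replicate 3 at 0.80 nearly meeting, and the means were 1.04 ± 0.17 and 0.64 ± 0.19 (SD, n = 3). This is a description of levels of the listed genes and depends on their number and abundance.

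A closer match sets each ER chaperone against its own cytosolic relative, as the log2 ratio of their normalised reads in the same library, on which a linear scaling of the libraries has no effect. The pairs were chosen after the values had been seen, so the ratios are a description with no test. For Hyou1, the ER HSP110, over Hsph1, the ratio was 1.98, 2.17 and 1.91 under the wild-type label and 0.98, 0.75 and 0.89 under the Otud1-/- label. The groups were far apart, by -1.15. For Hsp90b1 over Hsp90ab1 it was -0.58, -0.66 and -1.14 against -2.21, -1.49 and -1.41, a difference of -0.91 without overlap. Over Hsp90aa1, the other cytosolic HSP90, the ratio differed by -0.92. Hspa5 over Hspa8 differed by -0.39 with overlapping groups, Otud1-/- replicate 3 (-1.18) lying among the wild-type libraries (-1.02, -0.76 and -1.40). Dnajb11 over Dnajb1 went in the opposite direction, from 0.36, 0.24 and 0.46 to 0.62, 0.48 and 1.003, a difference of 0.35 without overlap.

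**Figure D3:**
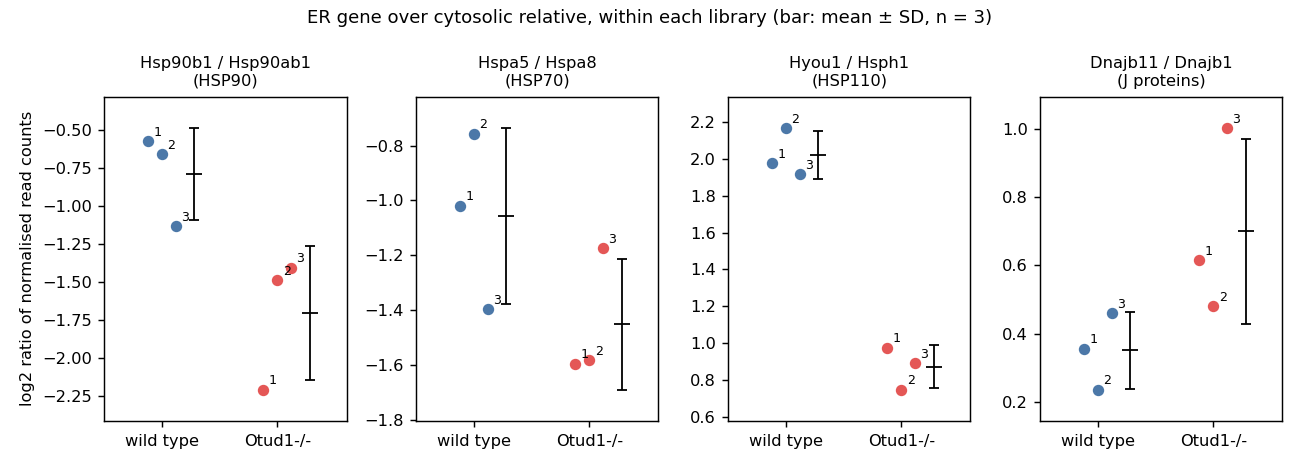
Log2 ratio of the normalised reads of an ER chaperone to those of its cytosolic relative in each library; points are libraries, numbered by replicate, and bars are the mean ± SD of 3. The ratio is lower in every library labelled Otud1-/- for Hsp90b1 over Hsp90ab1 and Hyou1 over Hsph1, higher in every one for Dnajb11 over Dnajb1, and overlapping for Hspa5 over Hspa8.

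Other genes of the same pathways gave small values that, like those of the members, depended on the scaling. Of 30 measured genes of other ER folding and oxidation, 25 were negative with a median of -0.13, and 1 fell: Mcfd2, the partner of Lman1 in carrying cargo from the ER to the Golgi, went from 2408, 2475 and 2537 to 1652, 1487 and 1701 normalised reads, a change of -0.62 ± 0.10 (limma adjusted p = 0.0395). The Mcfd2 call was lost without any wild-type library (adjusted p = 0.137, 0.140 and 0.175 without replicates 1, 2 and 3), without Otud1-/- replicate 3 (0.0701), under quantile, total-read and epithelial scaling (0.110, 0.0972 and 0.480), in limma without the trend and robust settings (0.177) and with a replicate block (0.154). Of 28 other ER-associated degradation genes 24 were negative (median -0.23) and none passed the test. Their smallest p-values belonged to Erlec1, a lectin of the pathway (-0.52, limma adjusted p = 0.0652), and Fam8a1, a subunit of the HRD1 complex (-0.45, limma adjusted p = 0.0813). Of 31 translocation and N-glycosylation genes 26 were negative (median -0.22) and none passed, led by Krtcap2, an oligosaccharyltransferase subunit (-0.54), and Ssr4, of the translocon (-0.35). Other unfolded protein response transducers had 9 of 15 negative and a median of -0.10, with none called, led by Creb3 (-0.40) and Tmbim6 (-0.48). As deposited, 6 of 30, 17 of 28, 14 of 31 and 4 of 15 genes of these lists were lower without overlap. Higher without overlap were 1, 0, 1 and 1. The shares of all tested genes were 13.3% lower and 13.0% higher. At a limma unadjusted p under 0.05, 7, 11, 10 and 3 were lower, against 9.97%, and 0, 0, 0 and 1 higher, against 9.5%. On the total-read and epithelial scales the medians were 0.079 and 0.25 for other ER folding (18 and 23 of 30 positive), -0.023 and 0.14 for other ER-associated degradation (12 and 23 of 28 positive), -0.013 and 0.15 for translocation and N-glycosylation (14 and 28 of 31 positive) and 0.11 and 0.28 for the other transducers (8 and 10 of 15 positive). Without Otud1-/- replicate 2 the translocation median was -0.14 and that of the other transducers -0.15, the latter being -0.059 without Otud1-/- replicate 1.

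Of 29 measured other integrated stress response genes none passed the test, and 14 were negative with a median of 0.01, which was 0.38 with 25 of 29 positive on the epithelial scale. Phgdh, the first enzyme of serine synthesis, had 503, 378 and 473 normalised reads against 759, 703 and 735 (0.71 ± 0.14, limma adjusted p = 0.0533), and Slc7a5, an importer of large neutral amino acids, was at 0.83 ± 0.18 (limma adjusted p = 0.0686). Both were higher in every library labelled Otud1-/-.

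Other cytosolic chaperones leaned the other way from the ER lists. Of 46 genes 37 were positive, with a median of 0.27 and none called, and 17 were higher without overlap against 13.0% of all tested genes. Their mean log2 level was 9.29, 9.32 and 9.29 under the wild-type label and 9.58, 9.61 and 9.63 under the Otud1-/- label. The 8 subunits of the cytosolic chaperonin CCT were all positive, with a median of 0.20, and none was called. Without Otud1-/- replicate 1 the CCT median was 0.12, and without replicate 1 of both labels it was 0.083 with 2 of 8 negative. In that last setting the median of the 46 genes was 0.14 with 34 positive. The smallest p-values were those of Hspb8, the small heat shock partner of Bag3 (0.90 ± 0.18, limma adjusted p = 0.0542), and Hspa12a, a distant HSP70 relative with the opposite sign (-1.45 ± 0.28, limma adjusted p = 0.0636). Other mitochondrial chaperones had no common direction as deposited: 8 of 14 were positive, with a median of 0.01 (-0.03 to 0.08 when libraries were left out, and 0.39 with all 14 positive on the epithelial scale), and Hspa9, the mitochondrial HSP70, was at 0.36 and Trap1, the mitochondrial HSP90, at 0.23, both with overlap.

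Several cell type marker lists also differed between the labels. Tissue RNA does not tell fewer cells of a type from less RNA per cell. Goblet cell markers were lower in 12 of 13 genes, with summed levels of 255124 to 270912 normalised reads in the wild-type label and 103344 to 116524 in the Otud1-/- label. The 1 positive gene of the list was at 2.32, with a limma unadjusted p under 0.05, overlapping groups and no call. In that list Fcgbp (-1.95), Fer1l6 (-1.74) and Bcas1 (-0.94) fell, with limma adjusted p-values of 0.000891, 0.00284 and 0.0453. The Bcas1 call was lost without any wild-type library (0.144, 0.117 and 0.182 without replicates 1, 2 and 3) and without Otud1-/- replicate 2 (0.0629) or 3 (0.0951). Plasma cell markers were lower in 14 of 15 genes, with sums of 188413 to 271023 against 89203 to 197760, and Xbp1 is itself on that list. The marker lists share further genes with the ER lists above. Mzb1, Fkbp11 and Txndc5 of the plasma cell list and Agr2 of the goblet list are also among the other ER folding genes. Derl3 of the plasma cell list is also among the other ER-associated degradation genes. Epithelial markers were lower in 13 of 15, with sums of 496176 to 585174 against 315452 to 469193. Smooth muscle markers were higher in 15 of 15, with sums of 57982 to 61947 against 90691 to 174622. Limma called 5 of the 15 higher, against 0.282% of all tested genes, with Tpm2, Myl9 and Synm at the smallest p. All 15 were higher without overlap, against 13.0% of all tested genes. No gene of these 4 lists was at 0 in any library. The part of these shifts in the chaperone results was not tested.

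**Figure D4:**
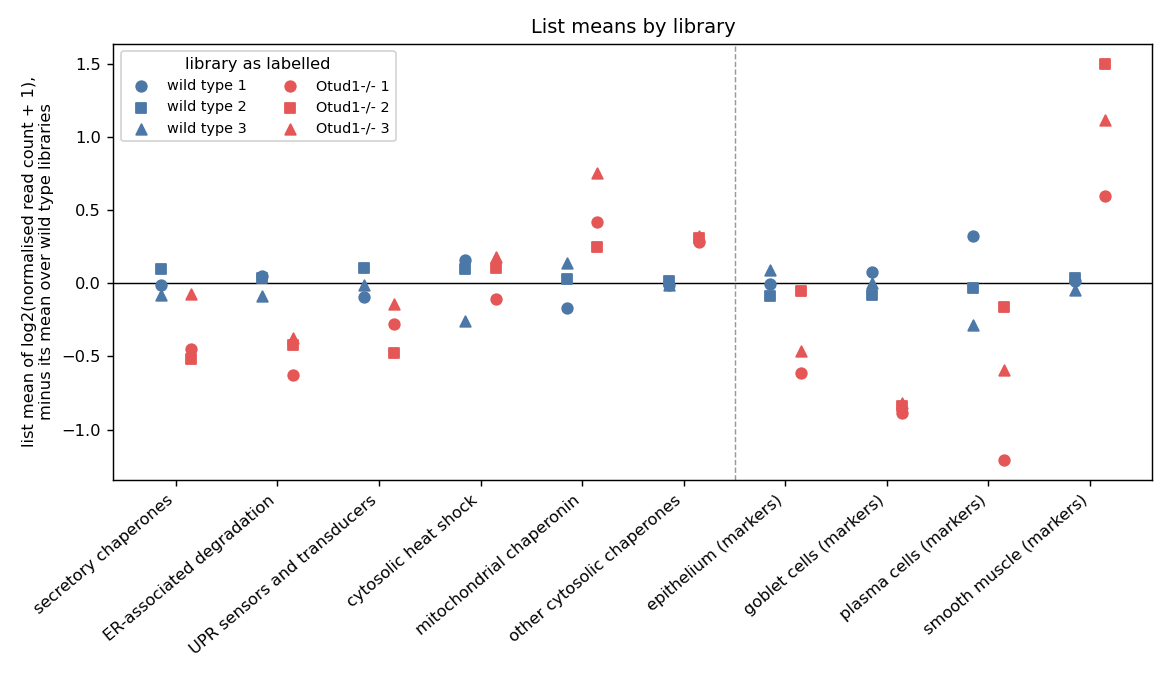
Mean log2(normalised reads + 1) of each list in each library, shown as its distance from the mean of the libraries labelled wild type; colours are the labels and marker shapes the replicates, with marker lists right of the dashed line. The secretory chaperones of Otud1-/- replicate 3 sit at the wild-type level, the ER-associated degradation genes of all 3 Otud1-/- libraries sit below it, and the other cytosolic chaperones of all 3 sit above it.

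The directions of the ER classes depended on how libraries were scaled to each other. The median change of all tested genes was 0.02 as deposited, 0.00 with quantile normalisation, 0.22 on a total-read scale and 0.39 on a scale set by the epithelial markers. The secretory median was -0.39, -0.15, -0.18 and -0.01 in the same order, with 16, 13, 12 and 8 of 16 genes negative. Relative to the median of all genes it was -0.41, -0.15, -0.40 and -0.41. The ER-associated degradation median was -0.49, -0.34, -0.28 and -0.11, and that of the sensors and transducers was -0.27, -0.24, -0.06 and 0.11, so the last turned sign under epithelial scaling. The cytosolic median was 0.01, 0.22, 0.21 and 0.38, which relative to all genes was -0.01, 0.22, -0.00 and -0.01. That of the integrated stress response was -0.03, 0.11, 0.18 and 0.35, which relative to all genes was -0.04, 0.11, -0.04 and -0.04. Hspd1 and Hspe1 stayed positive under all 4 scalings, with a median of 0.47, 0.66, 0.68 and 0.85.

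Abundance bears on the same point. The 5365 tested genes whose mean level lay within the range of the secretory chaperones had a median change of -0.12 and 68.6% of them were negative, and after quantile normalisation their median was -0.00. The 1697 genes within the range of the ER-associated degradation class had a median of -0.15 with 74.1% negative, against -0.49 for the class. The 1562 genes within the range of the mitochondrial pair had a median of -0.19, against 0.47 for the pair. These comparisons were added after the values had been seen. Under epithelial scaling 6 members were called higher (Hsph1, Hsp90aa1, Hsp90ab1, Hspb1, Hspd1 and Hspe1) against 4.9% of all tested genes, and none lower, against 0.503%. With total-read scaling the members called higher were Hsph1 and Hsp90aa1 (background 1.47% higher and 0.484% lower). With array weights in limma the same genes were called higher (background 1.03%) and Edem1, Dnajb1 and Herpud1 lower (background 1.62%).

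**Figure D5:**
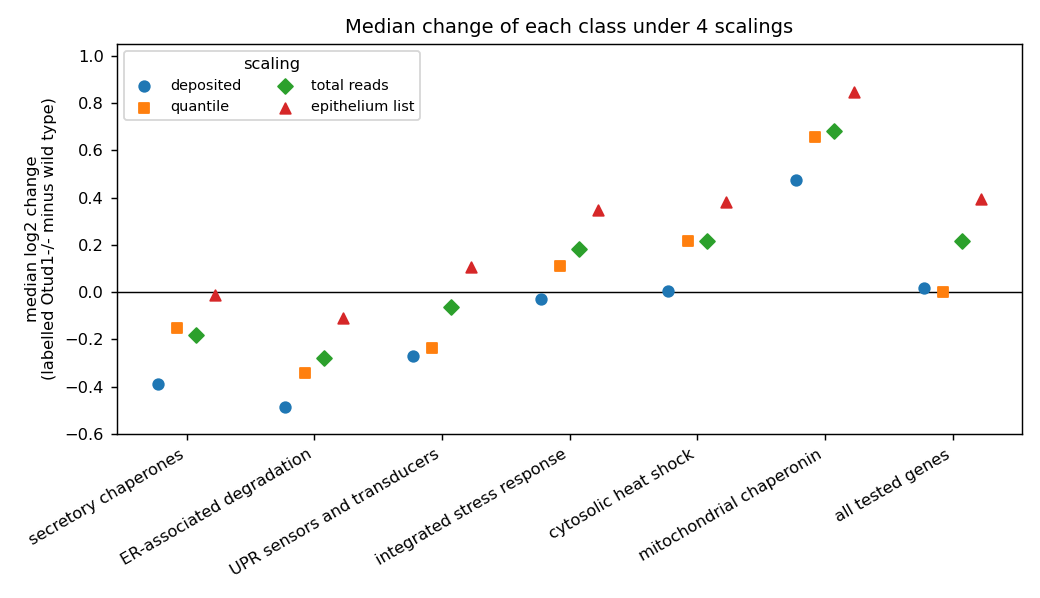
Median log2 change (labelled Otud1-/- minus labelled wild type) of each class and of all tested genes under 4 ways of scaling the libraries. ER-associated degradation is the lowest class and the mitochondrial pair the highest under each scaling, while the level of every class moves up from the deposited to the epithelial scaling.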

How the data were processed

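RNA was extracted with Trizol from distal colon tissue and made into Illumina libraries, per the labels' protocols. The deposited values are a read count signal per gene, normalised by the authors; reads were placed on mm10 according to the submitters' processing notes. No source used here names the aligner, the counter, its strand setting or the annotation (not given in the sources used here). In each library every value was a whole multiple of 1 step (tolerance 0.001), which gave whole reads. Of 21374 gene IDs, 21317 were paired with symbols through GENCODE mouse release 21. Values were tested with limma 3.58.1 (trend and robust) on log2(value + 1) with a filter of at least 1 in at least 3 libraries. edgeR 4.0.16 and DESeq2 1.42.0 on the recovered reads, other scalings, filters and pseudocounts, a replicate block and leaving out libraries were alternatives. The pipeline was tested on simulated data that held no outlying library. That test does not bear on the moves seen with other scalings or with libraries left out. Motifs were searched in RefSeq promoters with Python 3.11.15. The members and lists were chosen with earlier results of these data known. Values per library are given for called members, for the 4 with the smallest p of each class and for the most abundant per kilobase, and of each other list the called genes (up to 3) or the 2 with the smallest p are named.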

Additional observations from a re-analysis of the deposited data

How the results depend on the processing

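With 3 libraries a group, 1 called gene and a targeted gene that goes against its label, these values show sizes and directions between labels better than calls. The count of members called higher was 1, and it was 2 when scaled to total reads, 6 when scaled to the epithelial markers, 2 with array weights, 2 by DESeq2, 0 by limma without trend and robust settings, and 0 to 2 when libraries were left out. The count called lower was 0, and it was 3 with array weights (Edem1, Dnajb1 and Herpud1), 5 by DESeq2 and 0 to 1 when libraries were left out. At an unadjusted p under 0.05, limma gave 22 members among 4143 of 21281 genes, and 11 among 3499 without trend and robust settings, 10 among 3476 after quantile normalisation, 11 among 4925 on total reads, 8 among 5131 on the epithelial markers, and 11 among 2836 and 10 among 3559 without wild-type replicates 1 and 2. All tested genes called numbered 202 and became 118 with a pseudocount of 0.1, 122 with a mean of at least 5, 416 on total reads, 1149 on the epithelial markers, 0 without trend and robust settings, 564 with array weights, 91 by edgeR with TMM, 105 by edgeR with median-of-ratios factors, 1413 by DESeq2 and 10 to 394 when libraries were left out (10 without wild-type replicate 3, 11 without wild-type replicate 2, 35 without wild-type replicate 1, 114, 340 and 333 without Otud1-/- replicates 3, 2 and 1, and 394 without replicate 1 of both). The secretory median of -0.39 moved to -0.15 (quantile), -0.18 (total reads) and -0.013 (epithelial) and was -0.25 with array weights, where the secretory minus cytosolic difference of -0.40 was -0.23, and the cytosolic median of 0.01 to 0.22, 0.21 and 0.38 (-0.084 to 0.12 when libraries were left out). The Otud1 check of the labels passed the threshold at 1.75 on the epithelial scaling (adjusted p = 0.00406), 1.59 with array weights (0.0442), 1.29 by DESeq2 (0.0142) and 1.89 without replicate 1 of both labels (0.00495), and when libraries were left out its change ran from 1.14 to 1.89. On the epithelial scaling 14 of the 26 ER genes turned positive, 8 of them secretory chaperones (Canx 0.25, Pdia3 0.19, Pdia4 0.18, Pdia5 0.15, Pdia6 0.28, Dnajb11 0.045, Sdf2l1 0.0066 and Hyou1 0.050), with Ern1 (0.30) and Creb3l1 (0.17). Hspa8 (0.20) and Bag3 (0.18) turned too, as did Sel1l (0.058), Atf6 (0.033), Eif2ak3 (0.11), Ern2 (0.10), Ddit3 (0.16), Ssr4 (0.027) and Atf4 (0.30), and for Atf4 also after quantile (0.15) and total-read scaling (0.13). Small changes turned negative for Asns when libraries were left out (-0.19 to 0.22), for Cela1 likewise (-0.19 to 0.38), and for Pnlip (-0.13 with array weights, -0.14 to 0.87 when libraries were left out). Apart from the scalings, which act by construction, the cause of these moves was not tested.

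Deviations from the group means correlated at -0.26, -0.10 and -0.09 between libraries of the same replicate number. Within a label such deviations are tied to each other, so these correlations cannot decide whether the replicate numbers pair the libraries. The labels do not say whether they do. With a replicate block 18 genes were called and 0 members, as Hsph1 had an adjusted p of 0.121.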

Other observations

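Outside the chaperones, further lists were read for the state of the tissue. Glycolysis and hypoxia genes were lower in 11 of 11 measured genes, with a median log2 change of -0.54 (-0.17 and 9 of 11 negative on the epithelial scaling). Hk2 (-1.05), Pgk1 (-0.80) and Pdk1 (-0.70) fell, with limma adjusted p-values of 0.0287, 0.0248 and 0.0287. Each of these calls was lost without any wild-type library (adjusted p from 0.0789 to 0.149) and without Otud1-/- replicate 3 (0.0579, 0.0610 and 0.0673). Macrophage and monocyte markers were lower in 12 of 12 (median -0.69, none called). B cell markers (median -0.94) and T and NK cell markers (median -0.46) overlapped between the labels for each gene and rested on replicate 1, with medians of -0.33 and -0.034 without wild-type replicate 1 and of 0.13 and 0.31 without replicate 1 of both labels. Immediate early genes, fibroblast markers and neutrophil markers had medians of -0.28, 0.03 and 0.12, which ran from -0.59 to -0.11, from -0.18 to 0.18 and from -0.92 to 0.45 when libraries were left out. Summed neutrophil marker reads were 7350, 9568 and 10465 under the wild-type label and 4158, 3262 and 3925 under the Otud1-/- label. Of these 8 markers 5 were positive, and 1, Ly6g, was called lower by limma, against 0.667% of all tested genes. Without overlap 3 were lower and 1 higher, against 13.3% and 13.0% of all tested genes.

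Tumour and stem cell markers were higher in 9 of 9 measured genes, with a median of 2.67 and none called. All 9 were without overlap between the labels, against 13.0% of all tested genes higher without overlap. At a limma unadjusted p under 0.05, 3 of the 9 were higher, against 9.5% of all tested genes. Without wild-type replicate 1 the median was 1.48, and without replicate 1 of both labels 0.95. Their summed level was 994, 5114 and 4236 normalised reads under the wild-type label and 27734, 10300 and 7680 under the Otud1-/- label. Wild-type replicate 1 and Otud1-/- replicate 1 were the extremes, in tissue from which tumours had been removed.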
